A study of Mus musculus with 6 samples.

Results

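The glycolysis genes Hk2, Tpi1 and Ldha and the growth factor gene Vegfa were taken by symbol from the deposited table, where all 4 were present among the 559 listed genes. The table comes from natural killer (NK) cells purified from the spleens of C57BL/6 mice; NK cells are innate lymphocytes that lyse infected and malignant targets. Control cells received no oleic acid (OA), the common monounsaturated dietary fat, and OA cells received 0.2 mM; RNA was taken after 36 h and sequenced in 3 libraries per group, for the question of how OA alters gene expression. Per the labels, the treatment was done a single time, and nothing says that the 3 libraries of a group came from separate animals or cultures, so the p-values measure the spread between these libraries, which may be technical. Values are TPM, which divide reads by transcript length and bring each library to the same total. The depth of each library is unknown because TPM keeps no read numbers. Every listed gene had an authors' Q value under 0.05 on these same libraries, so tests on the table describe the listed genes and are not independent of how they were picked; a gene outside the table was not analysed here.

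Glycolysis breaks glucose down to pyruvate in the cytosol and yields ATP and building blocks. Activated NK cells are known to raise it, and their interferon gamma and granzyme production draws on it. Hk2 encodes hexokinase 2, which traps glucose in the cell by phosphorylating it and so starts the pathway. Tpi1 encodes triosephosphate isomerase, which interconverts the triose phosphates in the middle of the pathway. Ldha encodes lactate dehydrogenase A, which turns pyruvate into lactate and regenerates the NAD+ that glycolysis needs. Vegfa encodes vascular endothelial growth factor A, a secreted factor that drives blood vessel growth and that myeloid cells, among others, make. All 4 are textbook targets of hypoxia-inducible factor (HIF), a transcription factor held low by oxygen, and Hk2 and Ldha are also known targets of MYC.

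On GRCm38 in GENCODE M21, Hk2 lies on the minus strand at chr6:82725025-82774454, Tpi1 on the minus strand at chr6:124810586-124814296, Ldha on the plus strand at chr7:46841475-46855627 and Vegfa on the minus strand at chr17:46016993-46032369. All 4 are protein-coding genes. Processed pseudogenes in the same annotation shared stretches of at least 200 bases at 95% identity or more with the coding transcripts of Ldha (5 pseudogenes, with stretches of up to 1000 bases) and of Tpi1 (1 pseudogene, Tpi-rs11, 310 bases). No other annotated gene shared such a stretch with Hk2 or Vegfa. How reads that match both a gene and its pseudogene were divided is not given in the sources used here, so the levels of Ldha and Tpi1 carry that uncertainty.

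The sequences before the start sites are shown because HIF and MYC act through short motifs in promoters and because the 3 glycolysis genes and Vegfa stood on opposite sides of the control level. They are the 250 bases upstream of a start site in the RefSeq promoter table (GRCm38.p6, the most upstream site listed there) of Hk2 (chr6:82774455-82774704, minus strand), Ldha (chr7:46845554-46845803, plus strand) and Vegfa (chr17:46032378-46032627, minus strand), written 5′ to 3′ in the direction of the gene. The Hk2 and Vegfa sites are the outer ends of the RefSeq genes, but the RefSeq span of Ldha begins further upstream, at 46842274, so the Ldha window lies inside the gene; it overlaps no annotated exon. Capitals mark the HIF core motif, ACGTG or GCGTG on either strand.
Hk2: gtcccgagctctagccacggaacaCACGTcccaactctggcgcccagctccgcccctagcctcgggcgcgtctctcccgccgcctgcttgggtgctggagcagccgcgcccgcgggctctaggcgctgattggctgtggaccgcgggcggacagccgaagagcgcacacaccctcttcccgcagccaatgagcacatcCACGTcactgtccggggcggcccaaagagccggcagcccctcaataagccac
Ldha: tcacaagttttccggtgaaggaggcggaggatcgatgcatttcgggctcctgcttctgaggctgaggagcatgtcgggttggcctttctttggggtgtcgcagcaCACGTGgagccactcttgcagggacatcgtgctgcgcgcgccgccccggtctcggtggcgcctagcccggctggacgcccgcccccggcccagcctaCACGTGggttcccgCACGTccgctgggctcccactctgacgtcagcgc
Vegfa: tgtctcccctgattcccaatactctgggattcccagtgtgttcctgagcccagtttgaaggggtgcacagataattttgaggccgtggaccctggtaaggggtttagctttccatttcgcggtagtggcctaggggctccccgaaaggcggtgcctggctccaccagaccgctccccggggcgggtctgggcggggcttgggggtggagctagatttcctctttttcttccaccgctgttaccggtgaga
The Hk2 window held the motif at 2 places, beginning 226 and 52 bases before the start site. The Ldha window held it at 3 places, beginning 145, 48 and 34 bases before the start site. At 2 of these places the letters were CACGTG, the E-box read by MYC, which contains the HIF core on each strand. The first Vegfa window held 0 matches, and so did the single Tpi1 window, which overlaps an annotated Tpi1 exon and is not printed. The windows of second start sites had 1 match for Ldha and 2 for Vegfa, and both Vegfa matches lay inside an annotated Vegfa exon. Of all 32851 RefSeq windows of this length 38.6% held the HIF core and 6.02% held CACGTG, and of the 544 windows of listed genes 41.2% and 6.80% did. A match is a description of letters and not a binding site. Motifs outside these windows were not sought, so 0 matches does not mean that a gene lacks the motif. A link between the matches and the direction of a gene was not tested.

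The hexokinase gene Hk2 was lower after OA. Control replicates 1, 2 and 3 gave 85.6, 83.8 and 89.4 TPM and the OA replicates 74.1, 73.9 and 70.7 TPM. All OA libraries lay below all control libraries, with 9.69 TPM between the nearest values. The group means were 86.2 ± 2.88 and 72.9 ± 1.88 TPM (SD, n = 3 per group), so that OA stood at 0.845 of control. In limma, a linear model fitted over all 559 genes on log2(TPM + 1) with Benjamini-Hochberg adjustment, Hk2 fell by 0.24 log2 units (SE 0.0503, 95% interval −0.37 to −0.11, adjusted p = 0.026).

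Tpi1 had lower values in OA by a smaller margin. The control replicates gave 761, 776 and 789.7 TPM and the OA replicates 722, 721 and 686 TPM. The groups did not overlap, and OA replicate 3 was the lowest library. The means were 775 ± 14.4 and 709.6 ± 20.3 TPM (SD, n = 3 per group). The difference did not pass in limma (log2 fold change −0.13, SE 0.0473, 95% interval −0.25 to −0.0085, adjusted p = 0.0514).

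Ldha, the most abundant of the 4, had a difference of the same size. Its control values were 1643, 1626 and 1704.5 TPM and its OA values 1542, 1553 and 1438 TPM. Here too the groups did not overlap and OA replicate 3 was the lowest. The means were 1658 ± 41.4 and 1511 ± 63.5 TPM (SD, n = 3 per group), and the difference did not pass in limma (log2 fold change −0.13, SE 0.0538, 95% interval −0.27 to 0.0019, adjusted p = 0.0618). As a percentage, the interval for Tpi1 ran from −15.8% to −0.58% and that for Ldha from −17.1% to 0.13%.

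Vegfa moved the other way. Its control values were 40.2, 38.3 and 36.4 TPM and its OA values 47.3, 49.9 and 54.1 TPM. All OA libraries lay above all control libraries, and OA replicate 3 was the highest. The mean rose from 38.3 ± 1.92 to 50.5 ± 3.43 TPM (SD, n = 3 per group), 1.32 times the control level (log2 fold change 0.39, SE 0.0719, 95% interval 0.21 to 0.57, adjusted p = 0.026, limma).

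**Figure D1:**
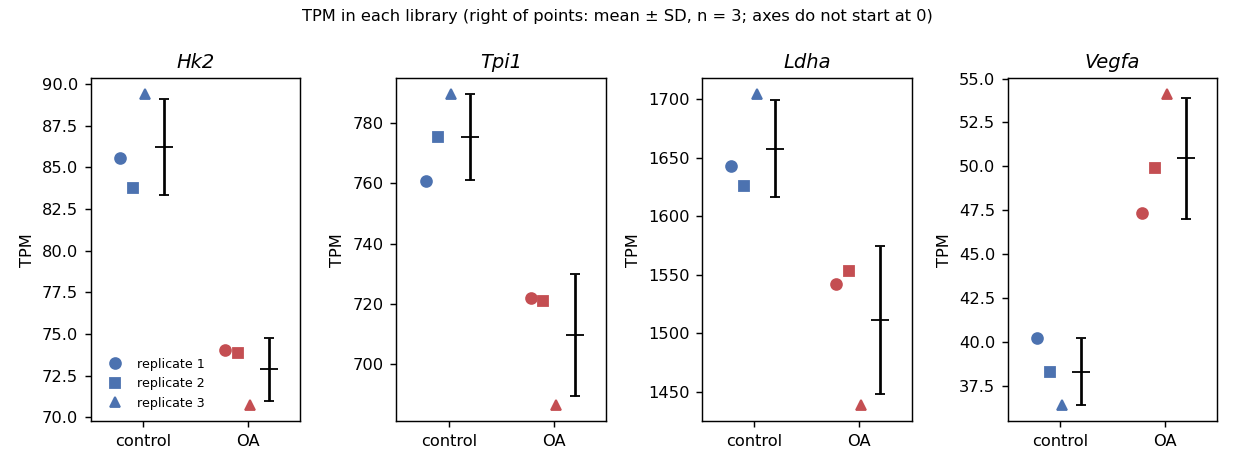
TPM (vertical axes, each with its own range and not starting at 0) of Hk2, Tpi1, Ldha and Vegfa in the 3 control (blue) and 3 OA (red) libraries, with marker shape for the replicate number and bars for mean ± SD (n = 3). The groups do not overlap for any of the 4 genes; Hk2, Tpi1 and Ldha are lower in OA and Vegfa is higher.

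Thus 1 member fell, 1 rose and 2 did not pass. Over the whole table limma called 76.0% of genes, 36.0% higher and 40.1% lower in OA (201 and 224 genes; 162 and 82 with the libraries scaled to equal medians). The groups did not overlap for 4 of 4 members, against 93.6% of the table, so neither count sets the members apart from other listed genes. An exact two-sided permutation test over the 6 libraries gave p = 0.1 for each member, which is the smallest p that 3 against 3 libraries can give.

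The calls for Hk2 and Vegfa depended on single libraries. Both passed without control replicate 3 (adjusted p = 0.0447 for each, limma), without OA replicate 1 (0.0374 for Hk2 and 0.0366 for Vegfa) and without OA replicate 3 (0.0403 and 0.0357). Neither passed without control replicate 1 (0.0673 and 0.0662), without control replicate 2 (0.0507 for each) or without OA replicate 2 (0.0793 for each). In these fits limma called 0, 100 and 0 of the 559 listed genes, so the loss was not particular to Hk2 and Vegfa. The unadjusted limma p there was 0.0198, 0.011 and 0.0189 for Hk2 and 0.0063, 0.0113 and 0.0114 for Vegfa. Tpi1 and Ldha passed in 0 of the 6 fits that left out a library (unadjusted p above 0.05 in each). Over these fits the log2 fold change ranged from −0.26 to −0.21 for Hk2 and from 0.34 to 0.43 for Vegfa.

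Measured against the rest of the table, the glycolysis genes combined small differences with a narrow spread. Every listed gene had an authors' Q value under 0.05 on these libraries, so a small difference was listed mainly where the spread was narrow. The combination is thus partly built in by the selection. In the authors' deposited table the log2 fold change was −0.23 for Hk2 (Q = 2.78e-05), −0.12 for Tpi1 (Q = 0.00904), −0.13 for Ldha (Q = 0.0118) and 0.41 for Vegfa (Q = 7.48e-05). By absolute size these ranked 421 (Hk2), 554 (Tpi1), 550 (Ldha) and 241 (Vegfa) of 559, and only 5 listed genes had a smaller difference than Tpi1. By Q value, from the smallest, the same genes ranked 55, 280, 318 and 72. The within-group SD on the log2(TPM + 1) scale was 0.0426 for Hk2, 0.035 for Tpi1, 0.0502 for Ldha and 0.084 for Vegfa, against a median of 0.117 over the table. Ordered from the smallest SD, Tpi1 ranked 15, Hk2 32, Ldha 52 and Vegfa 170. By mean TPM over the 6 libraries Ldha ranked 10 and Tpi1 35, both far above the table's median of 79.9 TPM, while Hk2 (rank 281) lay near it and Vegfa (rank 356) below it.

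Ratios within a library do not depend on how that library was scaled. Tpi1 per Ldha was 0.463, 0.477 and 0.463 in the control replicates and 0.468, 0.464 and 0.477 in the OA replicates. These groups overlapped, so the relative levels of the 2 genes were not separated by treatment. Hk2 per Ldha was 0.0521, 0.0515 and 0.0524 in the control replicates and 0.0480, 0.0476 and 0.0492 in the OA replicates. These groups did not overlap, and the mean ratio in OA was 0.928 of that in control, so Hk2 was lower relative to Ldha as well as in TPM. Vegfa per Hk2 was 0.470, 0.457 and 0.407 in the control replicates and 0.639, 0.675 and 0.765 in the OA replicates, with a mean 1.56 times as high in OA. As every OA library was higher for Vegfa and lower for Hk2, the groups had to separate in this ratio. The summed TPM of Hk2, Tpi1 and Ldha was 2519 ± 55.6 in control and 2294 ± 85.6 in OA (SD, n = 3 per group).

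**Figure D2:**
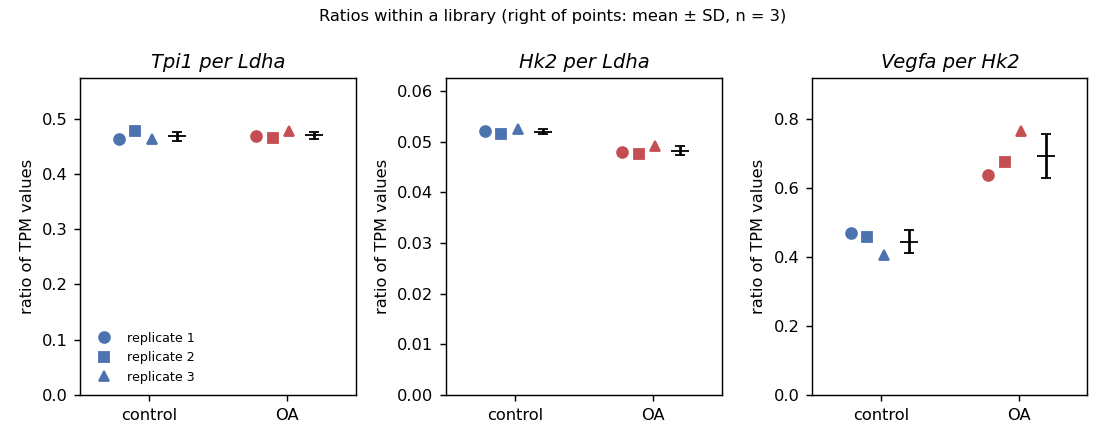
Ratio of TPM values within each library (vertical axes, from 0) for Tpi1 per Ldha, Hk2 per Ldha and Vegfa per Hk2, in control (blue) and OA (red), with mean ± SD (n = 3). Tpi1 per Ldha overlaps between the groups, and Hk2 per Ldha is lower in each OA library (0.0476 to 0.0492 against 0.0515 to 0.0524). Vegfa per Hk2 is higher (0.639 to 0.765 against 0.407 to 0.470), which follows from the opposite directions of both genes.

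Replicate 3 stood at the outer end of each group. For Hk2, Tpi1 and Ldha control replicate 3 was the highest control and OA replicate 3 the lowest OA library, and for Vegfa the order was turned around. This held for 4 of 4 members, and genes with this placing and no overlap between the groups made up 61.0% of the table. With replicate 3 of both groups left out, the log2 fold changes were −0.19 for Hk2 and 0.30 for Vegfa (adjusted p = 0.025 for each, limma), and −0.091 for Tpi1 and −0.078 for Ldha (adjusted p = 0.0707 and 0.0876).

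Markers of the cells in the samples differed between the same libraries. Of 21 NK cell markers 14 were listed and all 14 fell, against 40.1% lower over the table, the most abundant being Gzmb, Gzmc, Il2rb and Gzma. Their summed TPM was between 5672 and 6881 in control and between 3602 and 4714 in OA. It was highest in control replicate 3 and lowest in OA replicate 3, as for the 3 glycolysis genes. Genes with replicate 3 at opposite outer ends, in either direction, and no overlap made up 61.0% of the table, so this order is common. Ncr1, which encodes the NK receptor NKp46, was present in every library at between 79.1 and 139.9 TPM. Of 27 markers of monocytes, macrophages and dendritic cells 10 were listed, with Cd14, Itgam, Adgre1 and Msr1 the most abundant; 8 rose and 2 fell, and their summed TPM was between 1801 and 2064 in control and between 2331 and 2442 in OA. Of 17 B cell and plasma cell markers 6 were listed, with Ly6d, Cd79a and Mzb1 the most abundant; 5 rose and 1 did not pass, and their sum was between 323 and 403 TPM in control and between 503 and 592 TPM in OA. Both listed T cell markers fell (sum between 259 and 291 TPM in control and between 194 and 239.7 TPM in OA). The table held 5 granulocyte and mast cell markers, of which 3 rose and 2 fell (between 710 and 815 TPM, and between 903 and 966 TPM). It held 2 markers of red cell and platelet precursors, of which 1 rose and 1 did not pass (between 574 and 647 TPM, and between 691 and 754 TPM). None of the listed markers of these lists was at 0. In limma 0 markers of any of these lists were called without control replicate 1 or without OA replicate 2 (12 and 13 NK cell markers fell at an unadjusted p under 0.05), and 0 NK cell markers without control replicate 2 or control replicate 3 (14 and 10 unadjusted). Without control replicate 2, 3 myeloid and 3 B cell markers rose, and 4 and 4 without control replicate 3, OA replicate 1 or OA replicate 3. With the libraries scaled to equal medians, 6 of the 14 NK cell markers were called lower (14 at limma's unadjusted p under 0.05). Of the myeloid markers 4 rose and 1 fell at that setting, and 5 B cell markers rose. Over the table limma then called 82 genes lower, against 224 as reported. Fewer cells of a type and less RNA per cell cannot be told apart in these bulk libraries, and the part of the cell mixture in the values of Hk2, Tpi1, Ldha and Vegfa was not tested.

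Heart muscle markers stood far higher in OA replicate 3 than elsewhere. Of 37 such markers 21 were listed, and all 21 were highest in that library. Their sum was between 40.0 and 65.2 TPM in the control libraries and 57.0, 556 and 7497 TPM in OA replicates 1, 2 and 3. Without OA replicate 3, Hk2 and Vegfa passed with log2 fold changes of −0.22 and 0.34. Tpi1 and Ldha did not pass without it (log2 fold change −0.10 and −0.099, adjusted p = 0.0994 and 0.119, limma). With these 21 markers taken out and the rest of the table rescaled, all 4 members passed. The log2 fold changes were −0.23 for Hk2, −0.12 for Tpi1, −0.12 for Ldha and 0.40 for Vegfa (adjusted p = 0.0195, 0.0407, 0.0464 and 0.0195, limma). Muscle genes outside the marker list were not taken out. At this setting limma called 476 of the 538 remaining genes, so 4 of 4 does not set the members apart.

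**Figure D3:**
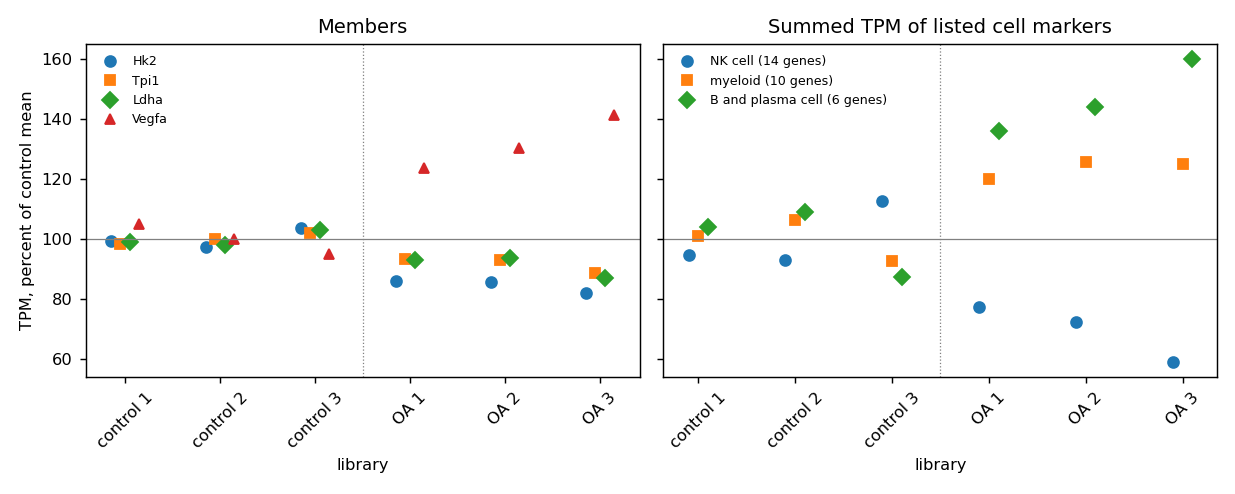
Left, TPM of Hk2, Tpi1, Ldha and Vegfa in each library as percent of the control mean; right, the summed TPM of the listed NK cell, myeloid and B cell markers on the same scale, with control libraries left and OA libraries right of the dotted line. In OA the glycolysis genes and the NK sum are below 100 and Vegfa, the myeloid sum and the B cell sum are above it.

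The neighbouring genes of the pathway were mostly outside the table. Of 35 genes of glycolysis and of glucose or lactate transport, 4 were listed: Hk2 and Slc2a6 fell (2 genes), 2 others did not pass and 0 rose (0 rising at an unadjusted p under 0.05 as well). Beside the 3 enzymes the fourth was Slc2a6, which encodes a hexose transporter of the GLUT family. Its control values were 78.1, 80.8 and 83.5 TPM and its OA values 64.9, 64.3 and 54.4 TPM, and fell by 0.40 log2 units in limma (SE 0.0848, adjusted p = 0.026). The median log2 fold change of the 4 was −0.19. As 3 of the 4 are members, chosen with earlier results known, this median largely restates their values. Over all listed genes the median was 0.14, with 40.1% called lower and 36.0% called higher. That median is no baseline of unchanged genes, because every listed gene passed the authors' Q value. The smallest absolute log2 fold change of the authors was 0.113, with 287 genes higher and 272 lower. A shift of glycolysis genes against other genes was therefore not tested. Slc2a1, Gapdh, Pgk1, Eno1, Pkm and the lactate exporter gene Slc16a3 were not listed, which does not mean that they were unchanged.

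Of 43 genes of the HIF pathway and its targets 7 were listed, and they did not share a direction. Vegfa and Hilpda rose, Hk2, Nos2 and Tfrc fell, and Tpi1 and Ldha did not pass. Hilpda, whose product blocks the lipase that empties lipid droplets, stood at 157, 174 and 102 TPM in the control replicates and at 269, 300.2 and 323 TPM in the OA replicates. Its log2 fold change was 1.07 (SE 0.218, adjusted p = 0.026, limma), larger than that of Vegfa. Nos2, which encodes inducible nitric oxide synthase, stood at 99.9, 99.2 and 140.4 TPM in control and at 72.9, 63.8 and 46.6 TPM in OA. It fell by 0.88 (SE 0.22, adjusted p = 0.0282, limma). Tfrc, the transferrin receptor gene, fell, with means of 85.8 ± 4.56 TPM in control and 75.5 ± 2.71 TPM in OA (SD, n = 3 per group). The median of the 7 was −0.13, and Hif1a itself was not listed. Vegfa was the only listed gene among 10 VEGF family ligands and receptors.

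Other carbon metabolism genes and regulators were few. Of 47 genes of pyruvate entry, the pentose phosphate pathway and the TCA cycle 2 were listed. Idh1, which encodes the cytosolic NADP-dependent isocitrate dehydrogenase, rose from 32.5 ± 3.94 to 42.5 ± 3.33 TPM (SD, n = 3 per group). Pdk4, which encodes a kinase that restrains pyruvate dehydrogenase, did not pass; its values were 0.35, 0.34 and 0.28 TPM in control and 0.64, 1.51 and 18.8 TPM in OA, so that OA replicate 3, the library with the heart muscle markers, set its mean. Of 29 regulators of glycolysis 3 were listed. Myc fell from 101.7 ± 5.65 to 87.0 ± 6.62 TPM (log2 fold change −0.22, adjusted p = 0.0465, limma). Bhlhe41, which encodes a basic helix-loop-helix repressor, rose from 4.18 ± 0.387 to 6.06 ± 0.543 TPM (SD, n = 3 per group). Prkaa2, which encodes a catalytic subunit of the energy sensor AMPK, did not pass (adjusted p = 0.0737, limma).

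The 5 lists together had 13 genes in the table. Of these, 4 rose, 5 fell and 4 did not pass, against 36.0% higher and 40.1% lower over the whole table. These counts do not set the 13 apart from other listed genes. Leaving out control replicate 1 or OA replicate 2 left 0 calls among the 13, as over the whole table. Of the 13, 4 rose and 4 fell at an unadjusted p under 0.05 in each case (limma). Without control replicate 2, Hilpda and Bhlhe41 were called, and without control replicate 3, Hk2, Vegfa, Hilpda and Bhlhe41. Slc2a6 and Nos2 passed in 2 of the 6 fits without a library and Idh1 in 1, while Tfrc and Myc passed in 0. Pdk4 and Prkaa2 passed without OA replicate 3. With the libraries scaled to equal medians, Tfrc and Myc were no longer called, and 4 genes rose and 3 fell.

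**Figure D4:**
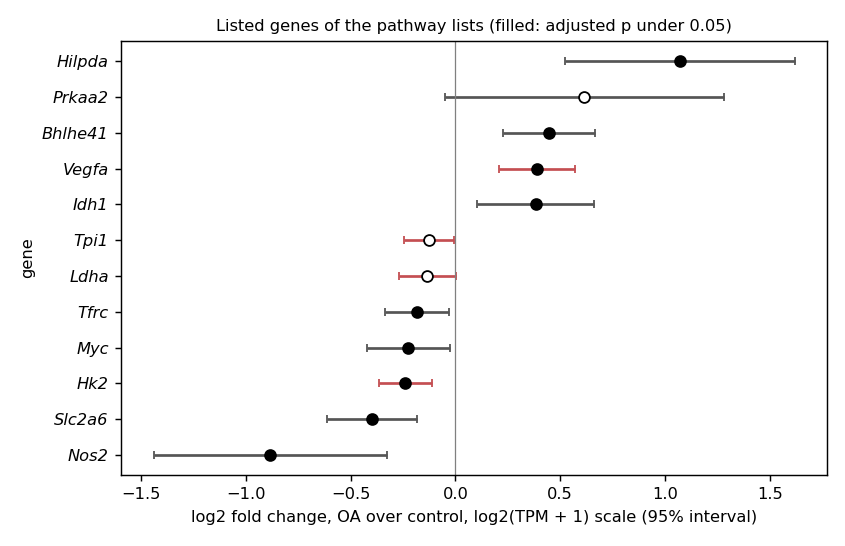
Log2 fold change of OA over control on the log2(TPM + 1) scale with its 95% interval (limma) for 12 of the 13 listed pathway genes, the 4 members in red; filled points have an adjusted p under 0.05. Pdk4, whose interval runs from −0.73 to 4.15, is left out. Hilpda (1.07) and Nos2 (−0.88) lie furthest out, and Tpi1 and Ldha lie closest to 0.

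The listed genes with the most similar pattern over the 6 libraries were sought by Pearson correlation of log2(TPM + 1). The points share the group difference by which the table was selected and the TPM scale, so high values are common: 233 listed genes had r over 0.9 with Hk2, 244 with Tpi1, 242 with Ldha and 160 with Vegfa. Closest to Hk2 were the chemokine gene Xcl1 (r = 0.991), Pa2g4 (0.991) and Ly6i (0.988). Closest to Tpi1 were Slc2a6 (0.995), the IL-12 receptor gene Il12rb1 (0.995) and the basophil protease gene Mcpt8 (0.995). Closest to Ldha were Tagap (0.998), D17H6S56E-5 (0.995) and the stem cell factor receptor gene Kit (0.995). Closest to Vegfa were Fam129c (0.999), Tsc22d1 (0.997) and Ypel3 (0.992). After the group means were subtracted, the r of these 12 genes with their member lay between 0.93 and 0.996. The 12 were picked by their r on these same libraries, so high values after the subtraction are partly built in. How many other listed genes reach such values was not counted, and genes with replicate 3 at opposite outer ends and no overlap made up 61.0% of the table. Among the members themselves r was 0.975 for Tpi1 and Ldha, 0.967 for Hk2 and Tpi1 and −0.990 for Tpi1 and Vegfa, and 0.921, 0.792 and −0.951 after the group means were subtracted.

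**Figure D5:**
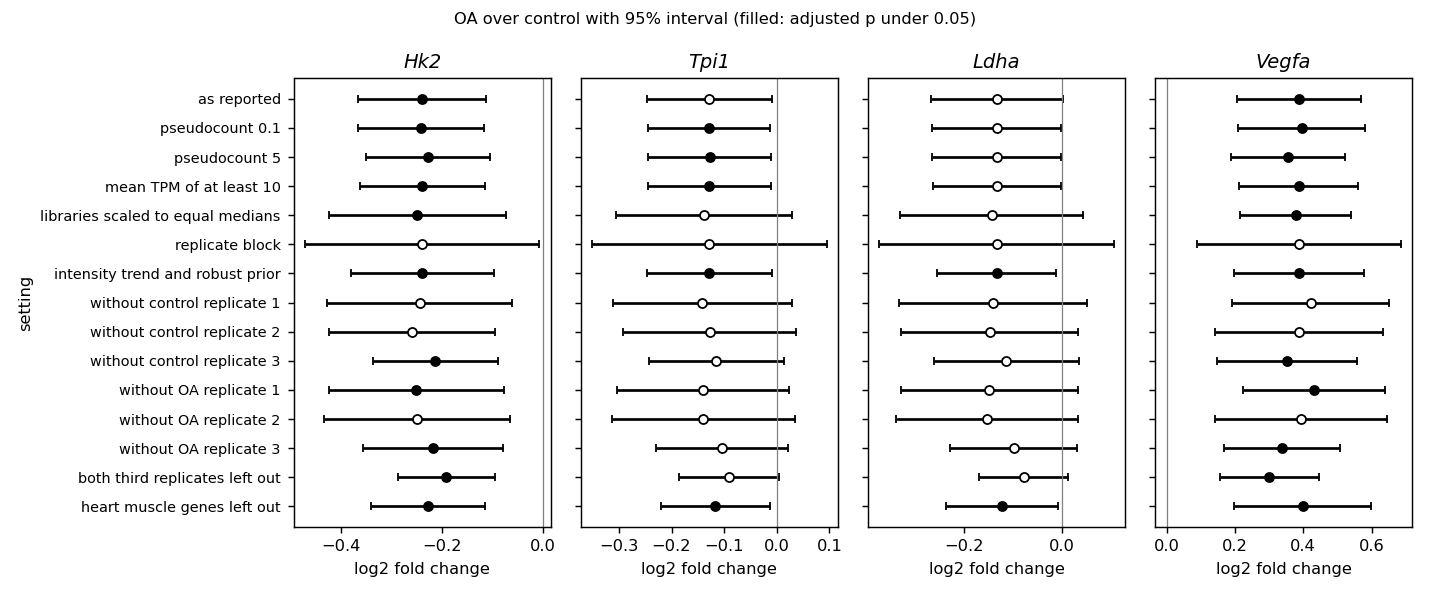
Log2 fold change of OA over control with its 95% interval (limma) for each member under each setting (vertical axis); filled points have an adjusted p under 0.05. The direction is the same at every setting shown, Hk2 and Vegfa lose the call in 4 of the 14 alternatives shown, and Tpi1 and Ldha gain it in 5 and 2; the stricter threshold of 0.01, at which neither Hk2 nor Vegfa is called, is not drawn.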

How the data were processed

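Columns were matched to samples by title and grouped by the treatment label. Per the file headers, the authors deposited TPM per library and per group mean, their own log2 fold change (OA over control), and a P value and Q value (adjusted p-value). Per the submitters' processing notes, the tools listed are Bowtie2, RSEM 1.3.1 and DESeq2 1.4.5 with build mm10, their roles not described; the annotation is not given in the sources used here. As TPM are not counts, limma 3.58.1 (R 4.3.3) was run on log2(TPM + 1) over all 559 genes with no filter or covariate, two-sided, Benjamini-Hochberg adjusted p under 0.05, after it was tested on simulated data; fold changes on this scale understate low genes. No 2 libraries held identical values (at most 14 equal TPM of 559). Copies were sought with BLAST over GENCODE M21 transcripts. Tables and plots used Python 3.11.15. The named genes were the 4 members, up to 4 listed genes of each of 5 pathway lists by smallest adjusted p, and the 3 closest patterns per member; from each marker list, up to 4 of the most abundant; Ncr1 was added after its values were seen, and 1 marker that this rule names is not reported here. Members and lists were chosen with earlier results of these data known. Alternatives were other pseudocounts, a filter on mean TPM, median scaling, a replicate block and another prior. Further alternatives were a stricter threshold and leaving out libraries or the listed heart muscle markers.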

Additional observations from a re-analysis of the deposited data

How the results depend on the processing

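No member changed direction under any alternative. The log2 fold change of Tpi1 gained the call at a pseudocount of 0.1 or 5 (−0.13 for each) and with a mean TPM of at least 10 (−0.13). It also gained the call with an intensity trend and robust prior (−0.13) and with the listed heart muscle markers left out (−0.12). That of Ldha gained it with that prior (−0.13) and without the listed heart muscle markers (−0.12). With the replicate number as a block, Hk2 (−0.24, adjusted p = 0.116) and Vegfa (0.39, adjusted p = 0.115) lost the call, and 0 listed genes and 0 pathway genes were called (limma's unadjusted p was under 0.05 for 149 higher and 89 lower genes, of the pathway genes for 3 and 3). Whether the replicate numbers pair the libraries cannot be told from these values. Same-numbered libraries deviated from their group means with r = 0.327, −0.109 and −0.0808 over genes, and not every library correlated best with its own number. The deviations are taken within groups of 3 libraries, so these correlations cannot exclude a pairing. At an adjusted p under 0.01, Hk2 (−0.24) and Vegfa (0.39) were not called and the table held 1 call. Libraries scaled to equal medians gave 244 calls, 66.4% of them higher in OA, against 425 and 47.3% as reported. Leaving out each library in turn gave log2 fold changes of −0.26 to −0.21 for Hk2, −0.14 to −0.10 for Tpi1, −0.15 to −0.099 for Ldha and 0.34 to 0.43 for Vegfa, between 0 and 364 calls in the table (0 without control replicate 1 and 0 without OA replicate 2, where limma's unadjusted p was under 0.05 for 171 higher and 168 lower genes and for 159 and 168) and between 0 and 8 among the pathway genes. The cause of these shifts was not tested. The number of libraries limits the precision, and TPM give no depth from which to set counting error.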
